A study of Mus musculus with 23 samples.

Results

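The 10 genes described here encode the transcription factor NRF2 (Nfe2l2), its repressor KEAP1 (Keap1) and 8 enzymes of glutathione and thioredoxin defence (Gclc, Gclm, Txnrd1, Srxn1, Gsr, Gpx2, Gsta4 and Gstm1). They were taken by symbol from the 16259 genes of the deposited table, and all 10 were found and lay above the filter on low values, so that each was tested in every comparison. Expression was measured by RNA-seq of whole proximal small intestine in 23 libraries from mice labelled male, 12 wild type and 11 Ddit4 knockout. Ddit4 encodes REDD1, an inhibitor of the growth kinase complex mTORC1. The doxorubicin libraries came from mice given 20 mg/kg of this DNA-damaging drug by intraperitoneal injection, and strain, age and the design of the knockout allele are not given in the sources used here.

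Untreated mice were fed ad libitum (0 h), fasted for 24 h (0 h), or fasted and refed and taken at 2 h or 6 h, with 1 wild-type and 1 knockout library in each of these 4 states. Doxorubicin was given to mice fed ad libitum (7 libraries) or to mice fasted for 24 h and refed (8 libraries, called prefasted here), and intestine was taken 2, 6, 12 or 24 h later. Of the 12 states of feeding, drug and time, 11 had a library of each genotype, and the knockout fed ad libitum 2 h after doxorubicin is not analysed here. Every library is therefore its own group, the genotypes of a state stand in for replicates, and a p-value reflects no more than the scatter among libraries that no label ties to separate litters. Values are normalized read counts, a change is given as log2 of (value + 1) with its standard error, and a gene counts as changed at a Benjamini-Hochberg adjusted p under 0.05 in limma over 11939 genes. Where groups of libraries are said not to overlap, this only describes their values, and the share of all genes without overlap was not counted.

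KEAP1 binds NRF2 in the cytoplasm and directs it to degradation, and oxidants and electrophiles that modify KEAP1 cysteines let NRF2 reach the nucleus, where with small MAF proteins it binds antioxidant response elements. Its targets include both subunits of glutamate-cysteine ligase, the first and rate-limiting enzyme of glutathione synthesis, and enzymes that reduce oxidized thioredoxin and peroxiredoxin or join glutathione to reactive molecules. Much of the control acts on the NRF2 protein, which RNA-seq does not measure. The small intestine meets dietary oxidants and xenobiotics and carries several glutathione transferases and the gut glutathione peroxidase GPX2, and doxorubicin, besides damaging DNA, cycles through a semiquinone that generates superoxide.

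Because the group is defined by a factor and its targets, the stretches before transcription starts that hold a core of the antioxidant response element are shown first. The letters searched were TGACNNNGC on either strand, whose first 4 letters also open the AP-1 motif TGACTCA, in windows from 250 bases before to 50 bases after each RefSeq start (GRCm38.p6, the build of the files). RefSeq windows were matched for 7 of the 10 genes and for 10 starts, with no entry for Gclc, Gsr and Gsta4. A match lay in 4 of these 10 windows, in Nfe2l2, Gclm, Txnrd1 and Srxn1, against 4071 of 32851 windows of all genes (12.4%). The 3 matches that lie before a start are shown with the matched letters in capitals, each 5' to 3' on the strand of its gene.
Nfe2l2: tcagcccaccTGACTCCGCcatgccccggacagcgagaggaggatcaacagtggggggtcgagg
Gclm: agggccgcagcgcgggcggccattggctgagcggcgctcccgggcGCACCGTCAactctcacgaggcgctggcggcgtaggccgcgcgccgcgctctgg
Txnrd1: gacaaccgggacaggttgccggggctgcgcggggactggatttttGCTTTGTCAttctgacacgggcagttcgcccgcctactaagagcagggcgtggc
The Nfe2l2 stretch is at chr2:75704850-75704913 on the minus strand, ends where the window ends, and overlaps an exon of the noncoding plus-strand gene E030042O20Rik, with its match from -240 to -232. The bases just after this RefSeq start were not found in a GENCODE transcript of Nfe2l2, so its positions hold for the RefSeq start only. Those after the Gclm and Txnrd1 starts shown were found. The Gclm stretch is at chr3:122245378-122245476 on the plus strand, overlaps no annotated exon and holds its match on the opposite strand from -134 to -126. For Txnrd1 the stretch is at chr10:82859069-82859167 on the plus strand before the second of 3 starts, in an intron of the longer transcript, and its match on the opposite strand runs from -92 to -84. The fourth match, in Srxn1, lies after the start and is not shown, and a match is a description of letters and not of binding.

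Reads recovered in genes ranged from 11418115 to 23428519 per library (median 15524351), and 1 read stood for 0.705 to 1.67 normalized reads. The targeted gene followed the genotype labels, with Ddit4 at 66.9 to 414 normalized reads in wild-type libraries and at most 11.3 in knockout libraries, 7 of which had none. Enterocyte markers were detected in every library (11 of 11 genes present). The titles of 4 wild-type prefasted libraries (2, 6, 12 and 24 h) read untreated although their drug field names doxorubicin, and the drug field was followed. Fewer than 20 Y-linked reads were found in 3 knockout libraries (ad libitum untreated, fasted, and refed 2 h untreated, with 0, 5 and 0). The other libraries held 1088 to 2030, so these 3, all untreated, go against the label male. The knockout fasted and the wild-type refed 6 h untreated libraries held pancreatic acinar transcripts (summed level 70275 and 189011, against at most 3309 elsewhere). The calls below are followed by their values without these sets of libraries, and where 0 of the 10 genes were called with them, 0 were called without the libraries lacking Y-linked reads or those with pancreatic transcripts.

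Per kilobase of exon, the median level over the 23 libraries was highest for the transferase Gsta4 (2203 ± 852 normalized reads per kb, SD, n = 23). Srxn1 (1812 ± 530), Gstm1 (1404 ± 1110), Nfe2l2 (1050 ± 246), Txnrd1 (988 ± 190) and Gclm (760 ± 162) followed on the same scale. The lowest levels were those of Gsr (440 ± 177), Gpx2 (273 ± 882), Gclc (180 ± 173) and Keap1 (158 ± 26.5). Neighbours in this order lay within the larger of their SDs of each other, except Txnrd1 above Gclm and Gclm above Gsr. The catalytic subunit gene Gclc was at a lower level per kb than its modifier partner Gclm. The spread also differed: on the log2 scale the SD over libraries was 1.5 for Gpx2, 0.91 for Gclc and 0.86 for Gstm1, against a median of 0.41 over all genes tested, and 0.23 for Keap1.

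**Figure D1:**
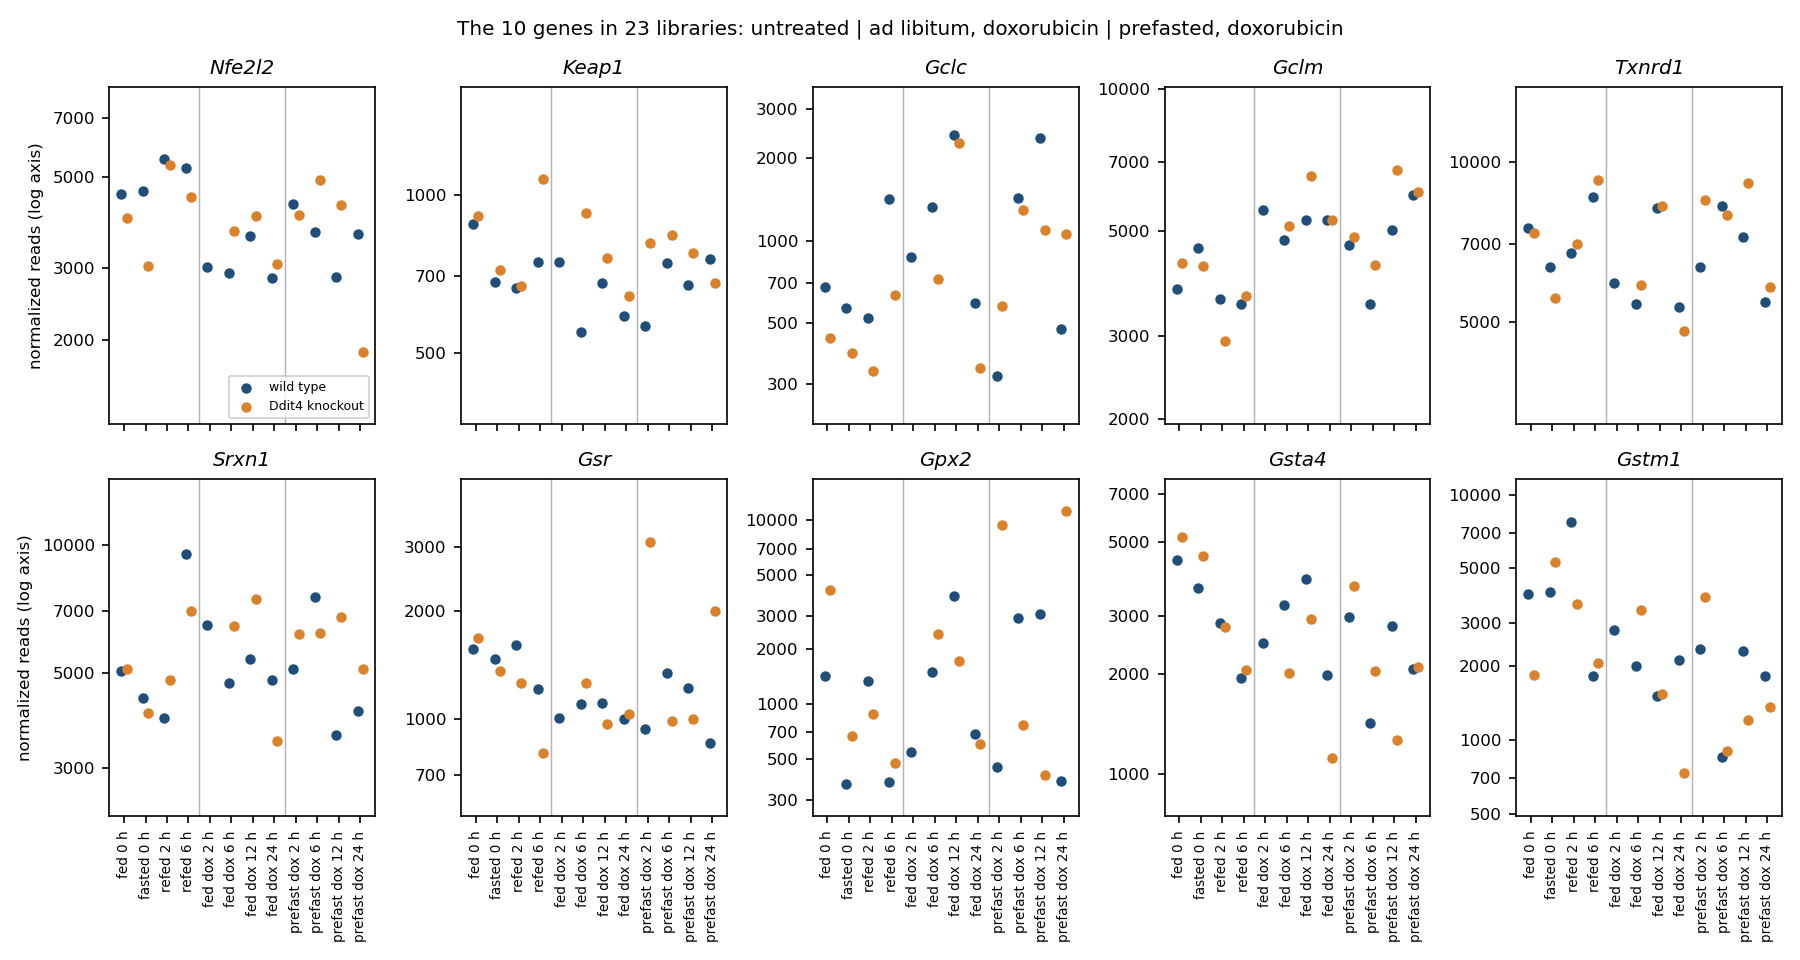
Normalized reads (log axis) of the 10 genes in each of 23 libraries, by state along the x axis, with wild type in blue and Ddit4 knockout in orange; grey lines part untreated, ad libitum doxorubicin and prefasted doxorubicin states. In the ad libitum libraries Gclc peaks 12 h after doxorubicin, at 2419 and 2268, and Gpx2 reaches 9476 and 11229.9 in 2 knockout prefasted libraries.

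The first question was how these genes behaved after doxorubicin in mice fed ad libitum, and 3 calls were made, Gclc and Gclm of glutathione synthesis at 12 h and Gsta4 at 24 h. Gclc, the catalytic subunit of glutamate-cysteine ligase (GRCm38 chromosome 9, 77754535 to 77794485), stood at 677 normalized reads in the wild-type and 444 in the knockout untreated library. It stood at 1320.4 and 725 at 6 h, at 2419 and 2268 at 12 h, and at 591 and 346 at 24 h. Both 12 h libraries were thus above both untreated ones, and the 24 h libraries had returned to the untreated range or below it. At 12 h Gclc rose 4.27-fold (log2 difference 2.09 ± 0.44, 95% interval 1.17 to 3.02, adjusted p = 0.00903). The differences at 6 h (0.84 ± 0.44, adjusted p = 0.393) and 24 h (-0.28 ± 0.44, adjusted p = 0.792) did not pass.

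Gclm, the modifier subunit that raises the activity of the enzyme (chromosome 3, 122245557 to 122270732), moved less. Its untreated libraries held 3767 and 4276 normalized reads, and the ad libitum doxorubicin libraries held 5553 at 2 h (wild type only), 4779.6 and 5119 at 6 h, 5273 and 6552 at 12 h, and 5265 and 5277 at 24 h. All 7 ad libitum doxorubicin libraries lay above both untreated ones. Gclm rose at 12 h (0.55 ± 0.17, 1.46-fold, adjusted p = 0.0490), and differed by 0.30 ± 0.17 at 6 h (adjusted p = 0.425) and 0.39 ± 0.17 at 24 h (adjusted p = 0.205). These 2 of 10 genes were called at 12 h, where 9% of all genes tested were called, so the count by itself does not set the group apart.

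Both calls rest on few libraries. Gclc missed the threshold without the knockout untreated ad libitum library (1.96, adjusted p = 0.0908), without the knockout 12 h library (1.95, adjusted p = 0.0985) and without the 3 libraries lacking Y-linked reads (1.92, adjusted p = 0.152). Gclm lost its call without either library of any of 7 states, those fed ad libitum (untreated and 6, 12 and 24 h after doxorubicin), the fasted state and the prefasted states 2 h and 24 h after doxorubicin (0.43 to 0.67, adjusted p up to 0.328). The log2 difference was positive for both genes in each of the alternatives run. The untreated ad libitum libraries were taken at 0 h only and are shared by the 6, 12 and 24 h comparisons, so the drug and the hours since 0 h cannot be told apart. Clock output genes moved with this comparison, with 7 of 9 (Per1, Per2, Per3, Tef and Hlf among them) called higher at 6 h and at 12 h and 5 of 9 at 24 h. Their summed level was 1342 to 2861 untreated and 6624 to 8471 at 12 h, and their part in these results was not tested.

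**Figure D2:**
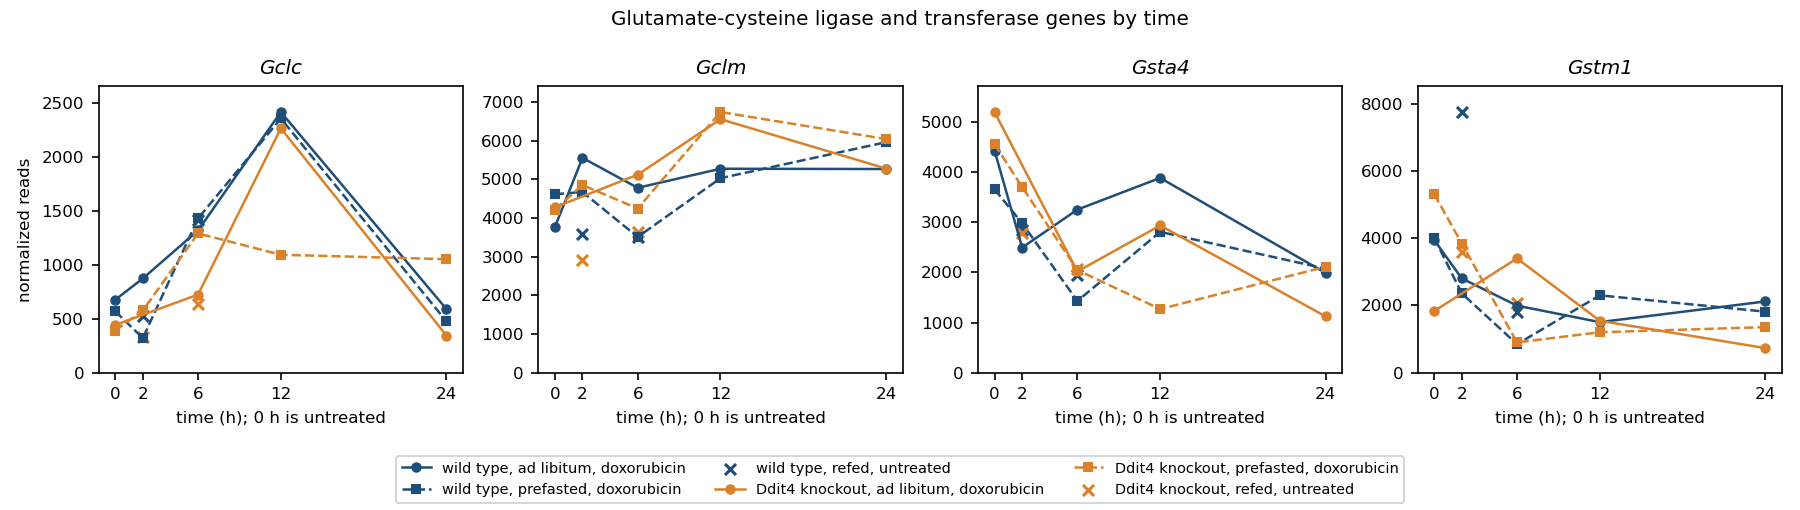
Normalized reads of Gclc, Gclm, Gsta4 and Gstm1 against time in hours, 1 point a library; solid lines are ad libitum and dashed lines prefasted doxorubicin mice, each starting from its untreated 0 h library, and crosses are refed untreated mice. Gclc rises and returns between 6 h and 24 h in 3 of the 4 series, and the knockout prefasted series lies between 1054 and 1293 from 6 h on.

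In mice fed ad libitum Gsta4 was lower after the drug, and Gstm1 was not called at any time. Gsta4, an alpha-class transferase that conjugates the lipid peroxidation product 4-hydroxynonenal (chromosome 9, 78182774 to 78209349), held 4426 and 5192 normalized reads in the wild-type and knockout untreated ad libitum libraries. After doxorubicin it held 2494 at 2 h (wild type only), 3249 and 2017 at 6 h, 3880.4 and 2934 at 12 h, and 1986 and 1121 at 24 h. All 7 drug libraries lay below both untreated ones. Gsta4 fell at 24 h (-1.68 ± 0.32, 0.311-fold, 95% interval -2.37 to -0.997, adjusted p = 0.0115), and the differences at 6 h (-0.90 ± 0.32, adjusted p = 0.197) and 12 h (-0.51 ± 0.32, adjusted p = 0.359) did not pass. The call was lost without the knockout untreated ad libitum library (-1.48, adjusted p = 0.145), without the knockout 24 h library (-1.31, adjusted p = 0.248) and without the 3 libraries lacking Y-linked reads (-1.43, adjusted p = 0.236).

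Gstm1, a mu-class transferase (chromosome 3, 108012255 to 108017973), held 3944 and 1836 normalized reads in the untreated ad libitum libraries, which differ from each other by more than 2-fold. The 24 h libraries held 2121 and 733, so the groups overlap, and the difference was -1.11 ± 0.46 (adjusted p = 0.196). The transferases have close paralogs, and the authors' counting could split reads between near-identical copies, so single levels of Gsta4 and Gstm1 are less certain than those of the single-copy genes.

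Nfe2l2 and Keap1 themselves passed in none of the ad libitum doxorubicin comparisons. Nfe2l2 held 4552 and 3987 normalized reads untreated, and 2924 and 3697 at 6 h, 3598 and 4014 at 12 h and 2835 and 3074 at 24 h. The untreated range was thus above that at 6 h and at 24 h and overlapped that at 12 h, with a difference at 24 h of -0.53 ± 0.28 (adjusted p = 0.324). Keap1 went from 883 and 912 untreated to 589 and 642 at 24 h, a difference of -0.54 ± 0.20 (adjusted p = 0.150). Txnrd1, the cytosolic thioredoxin reductase, went from 7521 and 7363 to 5336 and 4807 (-0.56 ± 0.16, adjusted p = 0.0736). The remaining genes at 24 h were Srxn1, which repairs overoxidized peroxiredoxins (-0.31 ± 0.27), Gsr, which regenerates reduced glutathione (-0.67 ± 0.42), and Gpx2 (-1.92 ± 1.34), none of which passed (adjusted p from 0.412 to 0.580).

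Counted over the group, 1 of 10 genes was called at 24 h (3.11% of all genes tested) and 0 of 10 at 6 h (1.34% of all genes). At 6 h, 2 of the 10 had an unadjusted limma p under 0.05 (Txnrd1 and Gsta4), as did 14.8% of all genes tested, and edgeR and DESeq2 called none of the 10. The median log2 difference of the 10 genes was -0.35 at 6 h, -0.04 at 12 h and -0.55 at 24 h, against -0.01 at 12 h and 0.02 at 24 h over all genes tested. At 24 h Gclm was the single gene of the 10 with a positive difference. Between 6 h and 24 h no gene of the 10 was called, and 0% of all genes were (limma, 850 genes and 3 of the 10 at an unadjusted p under 0.05; edgeR called 0 and DESeq2 46 genes, none of them among the 10).

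Markers of several cell types differed in the same comparison. The summed level of 8 crypt stem and dividing cell markers was 2752 to 4140 normalized reads in the untreated ad libitum libraries, 257 to 375 at 12 h and 375 to 684 at 24 h. For 7 Paneth cell markers it was 21431 to 27070 untreated, 5082 to 8904 at 12 h and 7377 to 13984 at 24 h. The 11 enterocyte markers summed to 993462 to 1126850 untreated, 1628840 to 1969070 at 12 h and 1179630 to 1275030 at 24 h, and crypt and Paneth sums were thus lower at both times with no overlap. In bulk tissue fewer cells of a type and less RNA per cell cannot be told apart, and the part of these shifts in the changes of the 10 genes was not tested.

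**Figure D3:**
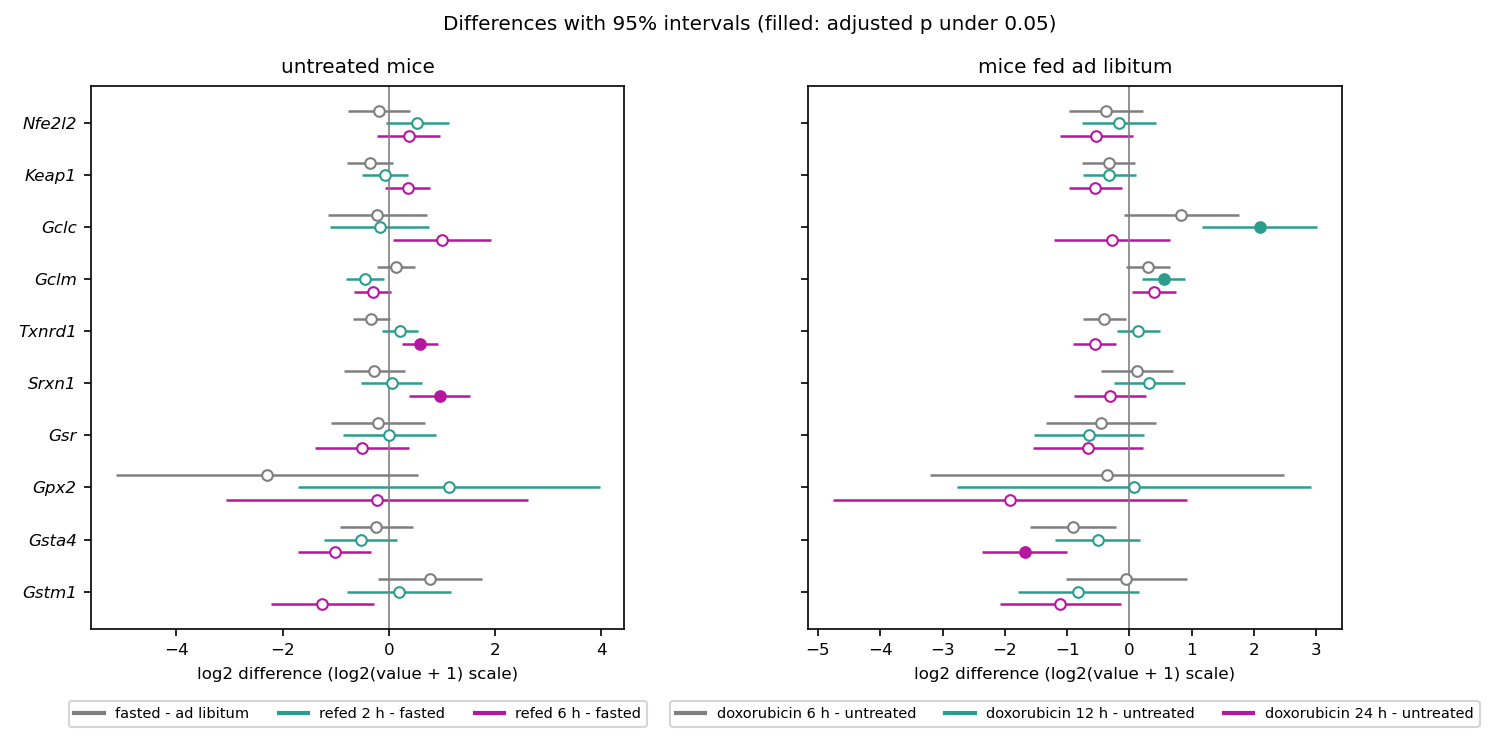
Log2 differences (points) with 95% intervals (lines) of the 10 genes in untreated mice by feeding (left) and in ad libitum mice after doxorubicin (right), filled where the adjusted p is under 0.05. Filled points are Txnrd1 and Srxn1 6 h after refeeding, Gclc and Gclm at 12 h and Gsta4 at 24 h.

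In prefasted mice the drug could be compared with refed untreated mice of the same hour. At 2 h Gclm held 4670.4 and 4851 normalized reads after doxorubicin and 3588 and 2923 without it, groups that do not overlap, and the difference of 0.56 ± 0.17 did not pass (adjusted p = 0.222). At 6 h the Gclm values were 3509.7 and 4245 against 3510.5 and 3643, a difference of 0.11 ± 0.17. Gclc at 6 h held 1432 and 1293 with the drug and 1414 and 637 without it, so that the untreated wild-type library was as high as the treated ones (0.52 ± 0.44, adjusted p = 0.680). Gstm1 at 6 h was lower with the drug in both genotypes, at 851 and 903 against 1814 and 2068 (-1.14 ± 0.46, adjusted p = 0.334). Gsta4, lower after the drug in ad libitum mice, was not lower here at 2 h. It held 2978 and 3700 with the drug and 2852 and 2788 without it, higher without overlap. At 6 h Gsta4 held 1429 and 2045 against 1956 and 2061, with overlap. Without the libraries of conflicting title, which leaves the knockout as the only drug library of each time, Gclm at 2 h was 0.57, Gclc at 6 h 0.78 and Gstm1 at 6 h -0.93 (adjusted p 0.408, 0.417 and 0.663).

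None of the 10 genes was called at 2 h (0.0335% of all genes called), at 6 h (0% of all genes) or with both times together (0.628% of all genes). Unadjusted limma p-values under 0.05 were found for 1 gene at 2 h (Gclm), 1 at 6 h (Gstm1) and both of these together, and edgeR and DESeq2 called none of the 10. Such p-values were held by 11.4% of all genes at 2 h, 12.1% at 6 h and 15.2% with both times together. Over all genes at 6 h, where limma and edgeR called 0, limma gave 1439 at an unadjusted p under 0.05 and DESeq2 called 127. With both times together Gclm differed by 0.33 ± 0.12 (adjusted p = 0.197) and Gstm1 by -0.98 ± 0.33 (adjusted p = 0.178). For Gclc the difference at both times together was 0.28 ± 0.31 (95% interval -0.37 to 0.94), and 0.79 ± 0.20 without the libraries of conflicting title (adjusted p = 0.174). Refed untreated libraries at 12 h and 24 h are not among those analysed here. The hour of the Gclc peak in ad libitum mice, 12 h, thus has no matched control in prefasted mice.

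Later times in prefasted mice can be set against earlier ones. Gclm held 5028 and 6737 normalized reads at 12 h and 5959 and 6039 at 24 h, against 4670.4 and 4851 at 2 h and 3509.7 and 4245 at 6 h, so all 4 late libraries were above all 4 early ones (0.46 ± 0.12, adjusted p = 0.157; DESeq2 adjusted p = 0.0275; 0.49 without the libraries of conflicting title, adjusted p = 0.195). Nfe2l2 differed by -0.48 ± 0.20 (adjusted p = 0.380), with the knockout 24 h library, at 1864, the lowest of all 23. In limma 0 of the 10 genes were called, where 0.0921% of all genes were, while edgeR called none and DESeq2 called Gclm. An unadjusted limma p under 0.05 was found for 2 of the 10 (Nfe2l2 and Gclm) and for 10.9% of all genes.

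The second question was what fasting and refeeding did without the drug. After 24 h of fasting none of the 10 genes was called against ad libitum feeding, where 0.343% of all genes were. No gene of the 10 had an unadjusted limma p under 0.05, and edgeR and DESeq2 called none of the 10. Of the 10, 2 had a positive difference (median -0.22, against 0.00 over all genes tested). Keap1, Txnrd1, Srxn1, Gsr and Gpx2 were lower without overlap, and Gstm1 was higher without overlap. Nfe2l2, Gclc, Gclm and Gsta4 overlapped. With 2 against 2 libraries a lack of overlap is weak evidence, and the share of all genes without it was not counted. Gpx2, the gastrointestinal glutathione peroxidase, held 366 and 664 normalized reads after fasting and 1424 and 4160.0 before it, without overlap, with a difference of -2.30 ± 1.34 (adjusted p = 0.804). Among genes of the pathway outside the 10, Ptgr1, which reduces reactive alkenals and prostaglandins, rose from 1908 to 2677 in ad libitum to 11468 to 12009 in fasted libraries (2.38 ± 0.28, adjusted p = 0.0014). The value was 2.27 without the libraries with pancreatic transcripts (adjusted p = 0.0263) and 2.17 without those lacking Y-linked reads (adjusted p = 0.200). Ptgr1 was the exception in its list, since 3 of 22 other NRF2 targets had a positive difference (median -0.55, against 0.00 over all genes tested), with 1 higher and 8 lower at an unadjusted p under 0.05. Of 21 other transferases 6 were positive (median -0.36), with 1 higher and 7 lower at that level, and none of these other genes passed after adjustment. Over all genes tested, 7.06% had an unadjusted limma p under 0.05, and no list was tested as a whole.

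At 2 h of refeeding no gene of the 10 passed either, where 0.251% of all genes were called, and edgeR and DESeq2 called none of the 10. In limma 1 of the 10 had an unadjusted p under 0.05 (Gclm), as did 8.67% of all genes tested. Gclm was at 3588 and 2923 normalized reads, against 4615 and 4218 after fasting (-0.45 ± 0.17, adjusted p = 0.407). Nfe2l2 reached 5558 and 5362, its highest pair of values, against 4634 and 3040.1 (0.54 ± 0.28, adjusted p = 0.637).

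At 6 h of refeeding 2 genes whose enzymes reduce oxidized thioredoxin or peroxiredoxin were higher. Srxn1 (chromosome 2, 152105516 to 152111376) went from 4385 and 4025 normalized reads in fasted libraries to 9549 and 6993, and Txnrd1 (chromosome 10, 82833951 to 82897712) from 6354 and 5535 to 8592 and 9243. The groups do not overlap for either gene, which with 2 against 2 libraries is weak evidence. Keap1 was also higher, and Gclm, Gsr, Gsta4 and Gstm1 lower, without overlap, while Nfe2l2 and Gpx2 overlapped. The same limit holds for these genes, and the share of all genes without overlap was not counted. Srxn1 rose by 0.96 ± 0.27 (1.94-fold, adjusted p = 0.0436) and Txnrd1 by 0.59 ± 0.16 (1.5-fold, adjusted p = 0.0402). Gclc went from 570.0 and 392 to 1414 and 637, also without overlap, and did not pass (1.004 ± 0.44, adjusted p = 0.166). Both transferases were lower, Gsta4 at 1956 and 2061 against 3652 and 4553 (-1.02 ± 0.32, adjusted p = 0.0645) and Gstm1 at 1814 and 2068 against 4009 and 5306 (-1.25 ± 0.46, adjusted p = 0.104), and neither passed. The 2 of 10 genes called compare with 7.02% of all genes. In limma 5 of the 10 had an unadjusted p under 0.05, as did 25.1% of all genes tested.

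These calls depended on single libraries. Leaving out both libraries with pancreatic transcripts, which leaves 1 library in each arm that is assumed to vary like the others, gave 0.45 for both genes (Srxn1 adjusted p = 0.584, Txnrd1 adjusted p = 0.348), and with the 3 libraries lacking Y-linked reads removed the values were 0.82 (adjusted p = 0.430) and 0.43 (adjusted p = 0.487). Srxn1 lost its call without either library of the ad libitum untreated, fasted, refed 2 h untreated and ad libitum 6 h and 12 h doxorubicin states or the wild-type refed 6 h untreated library (0.64 to 1.098, adjusted p up to 0.317). Txnrd1 lost its call without either library of the ad libitum untreated, refed 2 h and 6 h untreated and ad libitum 6 h, 12 h and 24 h doxorubicin states or the knockout fasted library (0.44 to 0.61, adjusted p up to 0.352). Crypt markers also moved in this comparison, from 1985 to 4237 in fasted to 746 to 776 in refed 6 h libraries, as did clock output (2932 to 3297 against 5168 to 6347), and their part in the result was not tested.

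The third question was whether a fast before doxorubicin altered the response. In 7 pairs of libraries matched on genotype and time, no gene of the 10 was called between prefasted and ad libitum mice, nor was any gene of the table (0%; limma, 766 genes and none of the 10 at an unadjusted p under 0.05; edgeR called 0 and DESeq2 21 genes, none among the 10). Txnrd1 had the most even difference, higher in prefasted libraries in 6 of 7 pairs (0.20 ± 0.10, 95% interval -0.02 to 0.43, adjusted p = 0.754). For Gclc the mean difference was -0.04 ± 0.29, with pairs from -1.44 (wild type, 2 h) to 1.61 (knockout, 24 h). The intervals of Nfe2l2 (-0.22 to 0.40), Keap1 (-0.19 to 0.30) and Gclm (-0.30 to 0.13) leave room for differences of up to 0.40, and that of Gpx2, -1.22 to 1.23, for larger ones.

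Whether the effect of the fast differed between early (2 h and 6 h) and late (12 h and 24 h) times was tested as an interaction. Gstm1 had the smallest p of the 10, with a change in the prefast difference of 1.36 ± 0.39 (adjusted p = 0.767). At 6 h Gstm1 was lower in prefasted mice in both genotypes, 851 against 1996 in wild type and 903 against 3398 in knockout, while the late pairs ran from -0.36 to 0.89. Gclm (0.41 ± 0.17) and Nfe2l2 (-0.57 ± 0.24) also had an unadjusted p under 0.05, and 0 of the 10 genes and 0% of all genes were called (limma, 671 genes at an unadjusted p under 0.05; edgeR 2 and DESeq2 22 genes, none among the 10).

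The other genes of the pathway gave no call in this interaction, and their lists differed. Of 22 other NRF2 targets tested, 17 had a positive value, 9 with an unadjusted p under 0.05 and none negative at that level, and of 21 other transferases 20 were positive, likewise with 9 against 0. Over all genes tested, 5.62% had an unadjusted limma p under 0.05. The median was 0.53 in both lists, against 0.01 over all genes tested, and the smallest adjusted p was 0.0944, for Nqo1. Genes of a list can vary together, and no list was tested as a whole. The remaining lists were near 0, with 5 of 10 NRF2 partners positive (median 0.00), 8 of 14 genes of glutathione synthesis, breakdown and peroxidases (0.06) and 8 of 13 thioredoxins, peroxiredoxins and related enzymes (0.07). Nqo1, a quinone reductase named here after its values were seen, held 232 to 504 normalized reads in prefasted libraries and 449 in the 1 ad libitum library at 2 h, 149 to 189 in prefasted and 360 to 416 in ad libitum libraries at 6 h, and 364 to 493.5 against 259 to 356 at 12 h. At 24 h it held 251 to 348 in prefasted and 179 to 255 in ad libitum libraries. The prefasted values were thus below the ad libitum ones at 6 h and above them at 12 h, with overlap at 2 h and 24 h.

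**Figure D4:**
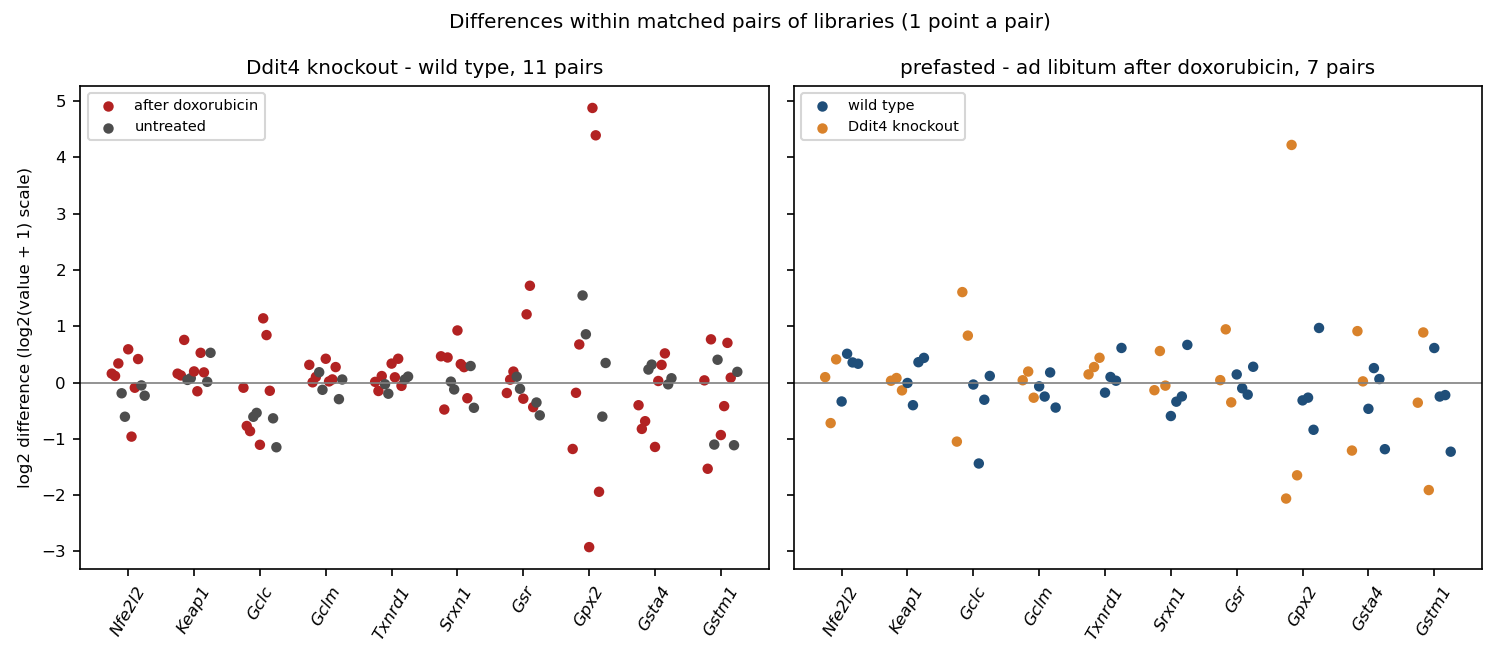
Log2 differences within matched pairs of libraries, 1 point a pair: knockout minus wild type in 11 pairs (left; red after doxorubicin, grey untreated) and prefasted minus ad libitum after doxorubicin in 7 pairs (right; blue wild type, orange knockout). Keap1 lies above 0 in 10 of 11 genotype pairs, and Gpx2 spreads from -2.92 to 4.88.

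The fourth question was the effect of the Ddit4 knockout. No gene of the 10 was called over the 11 pairs, where 0.578% of all genes were, and edgeR and DESeq2 called none of the 10. In limma 1 of the 10 had an unadjusted p under 0.05, as did 12% of all genes tested. That 1 was Keap1, higher in the knockout in 10 of 11 pairs by 0.22 ± 0.09 (adjusted p = 0.299), the exception being prefasted mice 24 h after doxorubicin (679 in the knockout against 756). Gclm was higher in the knockout in 9 of 11 pairs (0.09 ± 0.07, adjusted p = 0.662), and Gclc lower in 9 of 11 (-0.36 ± 0.19, adjusted p = 0.471). The exceptions for Gclc were prefasted mice after doxorubicin at 2 h (578 in the knockout against 322) and 24 h (1054 against 478). Leaving out the 4 libraries whose titles conflict with the drug field removes every prefasted doxorubicin pair, both exceptions included. The Gclc difference was then -0.67 and passed (adjusted p = 0.0464). The alternatives run, apart from leaving out single libraries, gave -0.67 to -0.25 (adjusted p up to 0.745), and no other of them passed. Nfe2l2 differed by -0.05 ± 0.12 and Txnrd1 by 0.06 ± 0.07.

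The knockout effect was not found to differ between doxorubicin and untreated libraries for any of the 10 genes (0%; limma, 497 genes and none of the 10 at an unadjusted p under 0.05; edgeR called 0 and DESeq2 7 genes, none among the 10), with Gclc at 0.59 ± 0.37 (adjusted p = 0.979). The same was so for the interaction of the prefast with genotype (0%; limma, 225 genes and none of the 10 at an unadjusted p under 0.05; edgeR and DESeq2 called 0), with Gclc at 0.88 ± 0.55, 95% interval -0.32 to 2.08. The 3 knockout libraries lacking Y-linked reads were all untreated, which limits the interaction of genotype with drug. In glutathione transferases outside the 10, the knockout had lower Gsta3 (-1.12 ± 0.24, adjusted p = 0.0434) and Gstm2 (-0.88 ± 0.19, adjusted p = 0.0470), 2 of 21 tested, where 0.578% of all genes were called. Both calls were lost without the libraries of conflicting title (-1.09 and -0.94, adjusted p 0.25 and 0.293), without those lacking Y-linked reads (-0.998 and -0.93, adjusted p 0.260 and 0.165) and without those with pancreatic transcripts (-1.09 and -0.98, adjusted p 0.129 and 0.0690).

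Gpx2 and Gsr, which act on peroxides and on the glutathione disulfide this produces, shared their extremes. Gpx2 (chromosome 12, 76792333 to 76795554) was highest in the knockout prefasted libraries at 24 h (11229.9 normalized reads) and 2 h (9476), and Gsr (chromosome 8, 33652523 to 33698163) was highest in the same 2 (1995 and 3091). In the other 21 libraries Gpx2 ran from 366 to 4160.0 and Gsr from 809 to 1679. The wild-type partners of the 2 libraries were low for both genes, with Gpx2 at 381 and 450.5 and Gsr at 861 and 938. Summed B and plasma cell markers were 9830 in the knockout prefasted 2 h library, the highest of all 23, and 2434 in the 24 h library. Paneth markers were 29471 and 4647 and crypt markers 2636 and 212 in the 2 libraries, so neither of these sums was high in both, and their part in the Gpx2 and Gsr values was not tested.

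Other genes of the pathway were counted from 5 lists in ad libitum mice after doxorubicin. Among 22 other NRF2 targets tested, 1 rose and 0 fell at 6 h, 1 rose and 3 fell at 12 h, and 1 rose and 5 fell at 24 h. Nqo1 fell at 12 h (-1.27 ± 0.33, adjusted p = 0.0258) and 24 h (-1.77 ± 0.33, adjusted p = 0.0096), from 662 to 812 normalized reads untreated to 179 to 255 at 24 h. The NADPH source Me1 (-1.87 ± 0.44 at 12 h, -1.95 ± 0.44 at 24 h) and, at 12 h, the biliverdin reductase Blvrb (-1.12 ± 0.33) fell as well, and at 24 h the peroxiredoxin Prdx1 (-1.003 ± 0.23) and the ferritin gene Fth1 (-1.30 ± 0.31). The risers were Ptgr1 at 6 h (1.34 ± 0.28) and 24 h (2.03 ± 0.28) and the export pump Abcc2 at 12 h (1.31 ± 0.31).

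In 14 tested genes of glutathione synthesis, breakdown and peroxidases, 1 rose and 1 fell at 6 h, 2 rose and 1 fell at 12 h, and 0 rose and 1 fell at 24 h. The gene that fell was Gpx1, the broadly expressed glutathione peroxidase, at each time (-1.65 ± 0.24, -1.85 ± 0.24 and -1.56 ± 0.24), from 6636 to 9373 normalized reads untreated to 2102 to 2261 at 12 h. Slc3a2, a subunit of amino acid exchangers that include the cystine importer, rose at 6 h (1.09 ± 0.22) and 12 h (0.77 ± 0.22), and Ggt1, which breaks down extracellular glutathione, at 12 h (0.65 ± 0.18). With the Y-lacking libraries left out, Slc3a2 at 12 h was 0.44 (adjusted p = 0.465), and Gpx1 kept its call at 12 h (-1.59, adjusted p = 0.0296).

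Of 21 other transferases 0 rose and 0 fell at 6 h, 2 fell at 12 h (Gstm4, -2.33 ± 0.35, and Mgst1, -1.05 ± 0.31) and 3 fell at 24 h (Gsta1, -2.45 ± 0.38, Gstm4, -1.60 ± 0.35, and Gstt1, -0.999 ± 0.20). Among 13 thioredoxins, peroxiredoxins and related enzymes 3 fell at 12 h and 3 at 24 h, Prdx2, Prdx3 and Prdx4 each time. Of 10 NRF2 partners and brakes tested, Bach1, a repressor that competes with NRF2 for the same elements, rose at 12 h (0.93 ± 0.22, adjusted p = 0.0182). Of the 29 calls in these lists after doxorubicin, all were kept without the libraries of conflicting title and without those with pancreatic transcripts. Without those lacking Y-linked reads, which leaves 1 untreated ad libitum library, 2 were kept (Gpx1 and Gstm4 at 12 h), all 29 had the same sign, and Prdx2 at 12 h, like Slc3a2, was smaller by over 1.5 times (-0.40, adjusted p = 0.345). The background shares are those given above for each time. The lists were chosen with earlier results of these data known, and at 24 h the median log2 difference was -0.55 in the other targets and -0.57 in the other transferases, against 0.02 over all genes.

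**Figure D5:**
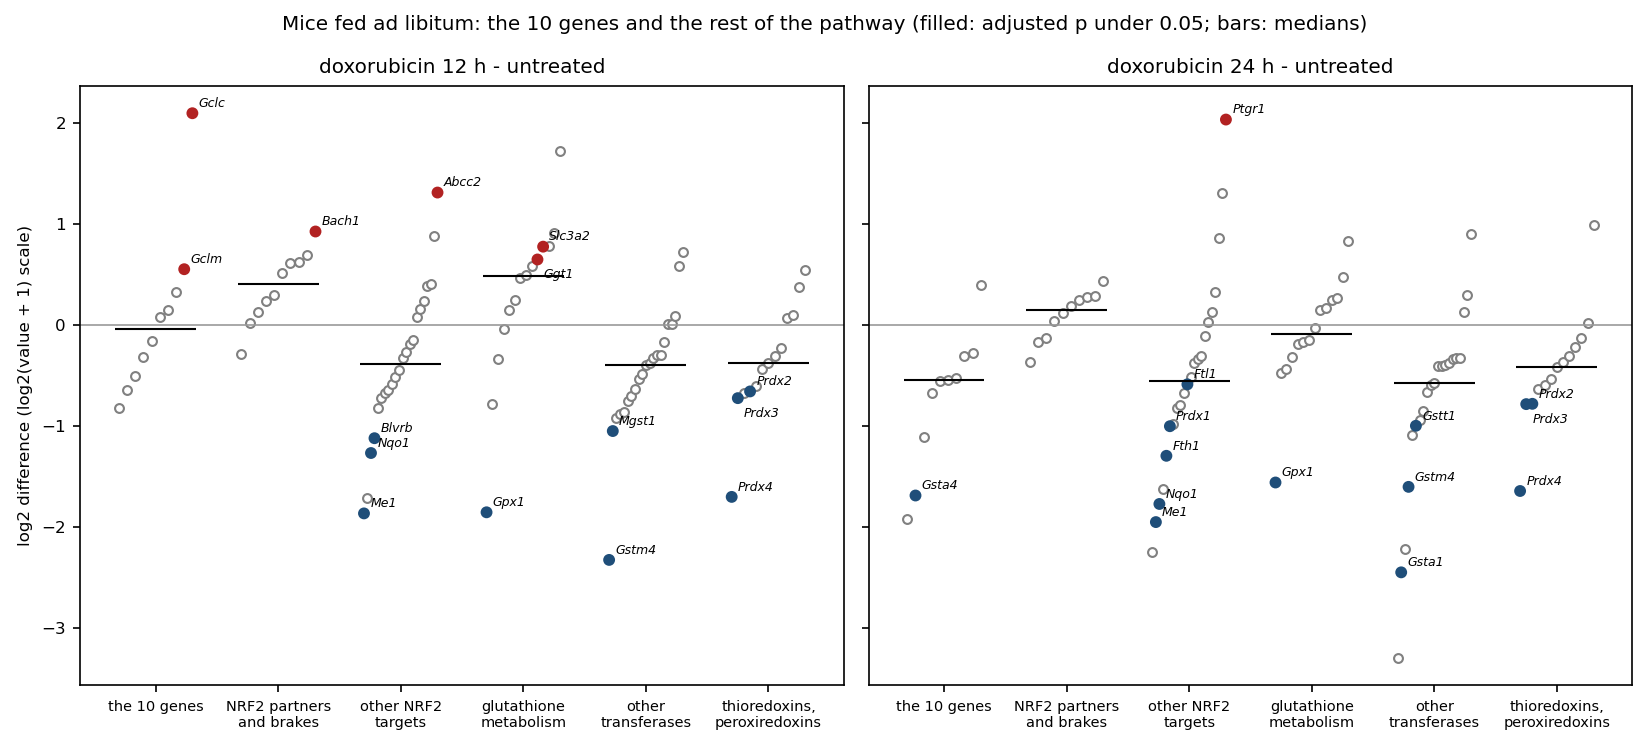
Log2 differences after doxorubicin in ad libitum mice at 12 h (left) and 24 h (right) for the 10 genes and 5 lists of other pathway genes, 1 point a gene; filled points have an adjusted p under 0.05 (red higher, blue lower) and bars are list medians. Gclc is the highest of the 10 at 12 h, and Gsta1, Me1 and Nqo1 are among the filled points below 0 at 24 h.

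In the other comparisons of these lists few genes passed. At 6 h of refeeding Ftl1 rose (1.09 ± 0.15, adjusted p = 0.0043), and Ptgr1 (-1.45 ± 0.28), the export pump Abcc1 (-3.88 ± 0.81), Gpx1 (-0.999 ± 0.24) and the glutaredoxin Glrx (-0.85 ± 0.22) fell. None of these 5 calls was kept without the libraries lacking Y-linked reads or without those with pancreatic transcripts, with the signs the same, and Gpx1 was -0.57 without the latter (adjusted p = 0.421). Of the 80 genes tested in these 5 lists, none passed 2 h after refeeding, in any prefasted doxorubicin comparison or between prefasted and ad libitum mice.

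As a description of pattern, the genes most like each of the 10 across the 23 libraries were named by Pearson r of their log2 values, where libraries share states and untreated groups and no test applies. Gsta4 ran closest to another alpha-class transferase, Gsta1 (r = 0.92), and Gstm1 to the mitochondrial isocitrate dehydrogenase Idh2 (r = 0.85) and to Gstm3 (r = 0.84). Gclc was most like the nucleotide sugar transporter Slc35d1 (r = 0.85) and the acetyltransferase genes Nat8f5 and Nat8f6 (r = 0.83 each). Gclm was most like Max (r = 0.89), Keap1 like Tex2 (r = 0.88), Txnrd1 like Fam122a (r = 0.86), Srxn1 like Zfyve16 (r = 0.85) and Nfe2l2 like Zfp961 (r = 0.84). Gpx2 was most like the ketone body enzyme Oxct1 (r = 0.75), the antimicrobial lectin Reg3g (r = 0.71) and Gsr (r = 0.70), and Gsr was most like Smg8 (r = 0.70). Gsr and Gpx2 were the only pair of the 10 in which one was among the 3 genes most like the other, and their likeness includes the 2 knockout prefasted libraries described above.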

How the data were processed

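RNA was sequenced as non-directional poly-A libraries with paired reads, per the labels' protocols. The authors deposited 1 table of 16259 genes by 23 libraries, whose signal values are counted reads scaled by a single factor for each library and left unlogged; per the submitters' processing notes Trim Galore, STAR, DESeq2 and the build mm10 were used, with no versions. The annotation, the assignment of reads to genes and any gene filter are not given in the sources used here, and without strand, reads of overlapping genes cannot be told apart. Whole reads were recovered for 100% of values (within 0.01 of a whole read), which served edgeR 4.0.16 and DESeq2 1.42.0 as alternatives.

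The main test was limma 3.58.1 (R 4.3.3, empirical Bayes with trend) on log2(value + 1) over 11939 genes (mean normalized reads of 10 or more), with Benjamini-Hochberg adjustment at 0.05. One model held 12 states plus genotype over the 23 libraries and gave the genotype, feeding and drug contrasts. Prefasted and ad libitum mice were compared within 7 pairs matched on genotype and time. Interactions were fitted for genotype with drug and for the prefast difference with time and with genotype. The code was tested on simulated data. The 2 interactions of the prefast had 5 residual degrees of freedom, and such small fits limit what can be detected.

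The 10 genes and all lists were chosen with earlier results of these data known. Named were the 10 genes, Ddit4, the 3 genes most like each member by Pearson r (gene models without a name passed over) and, in each list, at most 5 called genes per comparison by smallest p. Alternatives changed the pseudocount (0.5, 5), the filter (none, a mean of at least 50), the scaling (quantile, TMM), the tool and the libraries included. Levels per kb used the GENCODE exon union on GRCm38, and promoter windows came from RefSeq (GRCm38.p6). Tables were handled in Python 3.11.15 with pandas 2.3.3 and numpy 2.4.6, and figures drawn with matplotlib 3.10.9.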

Additional observations from a re-analysis of the deposited data

How the results depend on the processing

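Among the single-gene results followed, those of the 10 genes that were called in some setting, none changed direction under the alternatives run. In the comparison of refed 6 h with fasted libraries, where 2 of the 10 genes were called, the count was 0 without a filter, 0 with quantile scaling, 1 with TMM, 0 with edgeR (adjusted p 0.0558 for Txnrd1 and 0.0517 for Srxn1), 4 without the libraries of conflicting title, 0 without those lacking Y-linked reads, 0 without those with pancreatic transcripts, and 0 to 3 leaving out 1 library at a time. For doxorubicin at 12 h, with 2 called, it was 1 without a filter, 1 with quantile scaling, 1 with TMM, 3 without the libraries of conflicting title (Gsr added, adjusted p = 0.0474), 0 without those lacking Y-linked reads and 0 to 2 leaving out 1 library. For doxorubicin at 24 h, with 1 called, it was 2 with DESeq2 (Txnrd1 added, adjusted p = 0.0240), 3 without the libraries of conflicting title (Txnrd1 and Gpx2 added), 0 without those lacking Y-linked reads and 0 to 1 leaving out 1 library. The knockout comparison gave 1 without the libraries of conflicting title (Gclc, -0.67, adjusted p = 0.0464), and late against early prefasted libraries gave 1 with DESeq2 (Gclm). That reduced set holds neither of the pairs in which Gclc was higher in the knockout. The other 11 comparisons kept a count of 0 in every setting run. The cause of these shifts was not tested, beyond the fewer libraries of the reduced sets. Of the single-gene values followed, leaving out 1 library kept 232 on their side of the threshold, moved 2 past it and lost 42, and the other settings kept 106, moved 9 past it and lost 17. No scaling moved the median of all genes by more than 0.1. Over all genes called, the share that was higher for doxorubicin at refed 2 h was 25% of 4, against 62.5% of 32 with quantile scaling and 50% of 6 with TMM, and the balance turned for doxorubicin at 12 h (53.2%, against 46.4% with quantile scaling and 49.8% with TMM) and for refed 6 h against fasted (50.7%, against 48.2% and 43.1%). Without the libraries lacking Y-linked reads, single libraries stood for the ad libitum untreated and fasted states and were assumed to vary like the others. The interaction of prefast and genotype could not be fitted without the libraries of conflicting title. The labels give no replicate numbers, so no fit with a replicate block was made, and the 7 pairs of prefasted and ad libitum libraries are matched on genotype and time only. Of 37 calls in the pathway lists, in a check added after seeing the data, 35 were kept without the libraries of conflicting title, 30 without those with pancreatic transcripts and 2 without those lacking Y-linked reads, with the same sign in each. There is 1 library per state and genotype, and each of the 10 genes had at least 322 normalized reads in every library.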
